A study of Mus musculus with 8 samples.

Results

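The insulin-like growth factor (IGF) axis of the mouse heart was followed through 9 genes: the ligands Igf1 and Igf2, the receptor Igf1r, and the binding proteins Igfbp2, Igfbp3, Igfbp4, Igfbp5, Igfbp6 and Igfbp7. The probe sets were all those whose gene symbol in the array platform's annotation was one of these 9, which gave 26 of the 45037 probe sets that are no controls, and 9 of the 18193 genes with a symbol of their own. RNA from the hearts of male mice aged 6 to 8 weeks had been measured on 8 Affymetrix arrays, 2 for each of 4 groups. The groups were DOX and saline in MT-/- mice and DOX and saline in MT+/+ mice. MT-/- stands for mice labelled as null for metallothionein I and II, small metal-binding proteins, and MT+/+ for the matching wild type. DOX is doxorubicin, an anthracycline cancer drug that damages the heart, given once at 15 mg/kg into the abdominal cavity. The saline mice received an equal volume of saline, and the hearts were collected on day 4. The labels call the 2 arrays of a group biological replicates. The strain, the kind of null allele and whether an array holds 1 heart or a pool are not stated.

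IGF1 and IGF2 are secreted growth factors that act through the IGF1 receptor, a tyrosine kinase of the cell surface that signals through phosphoinositide 3-kinase and AKT to growth, survival and protein synthesis. In blood and tissue both ligands are bound by the IGF binding proteins, which carry them, hold them back from the receptor or release them when cut by proteases, and some of which also act without a ligand. In the adult heart IGF1 signalling is known for its part in the growth and survival of cardiomyocytes, while IGF2 is above all a fetal growth factor.

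Sequences are shown for the 3 of the 9 genes that hold the largest DOX differences among them, Igfbp3, Igfbp7 and Igf1. Each is the stretch of 250 bases before the RefSeq transcript start in the GRCm38.p6 assembly, 5′ to 3′ on the gene's own strand, and capitals mark every C followed by G (CpG).
Igfbp3, chr11:7213924-7214173, minus strand: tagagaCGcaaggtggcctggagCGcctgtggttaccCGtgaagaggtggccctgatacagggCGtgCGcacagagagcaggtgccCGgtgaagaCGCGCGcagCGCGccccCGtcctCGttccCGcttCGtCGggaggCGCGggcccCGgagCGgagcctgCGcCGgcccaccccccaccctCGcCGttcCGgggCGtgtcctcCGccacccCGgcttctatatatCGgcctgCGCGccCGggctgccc
Igfbp7, chr5:77408046-77408295, minus strand: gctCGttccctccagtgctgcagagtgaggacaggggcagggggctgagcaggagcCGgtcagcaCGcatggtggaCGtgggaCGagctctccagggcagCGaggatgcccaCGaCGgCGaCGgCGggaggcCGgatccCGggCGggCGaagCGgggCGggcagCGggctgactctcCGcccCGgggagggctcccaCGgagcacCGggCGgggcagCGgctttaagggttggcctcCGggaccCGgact
Igf1, chr10:87860861-87861110, plus strand: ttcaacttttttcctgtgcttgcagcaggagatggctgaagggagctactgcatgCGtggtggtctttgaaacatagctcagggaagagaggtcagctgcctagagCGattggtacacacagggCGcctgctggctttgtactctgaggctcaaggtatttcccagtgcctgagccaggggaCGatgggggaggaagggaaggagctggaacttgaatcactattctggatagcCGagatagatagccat
The Igfbp3 promoter held 32 CpG in 250 bases and was 73.2% G or C. The Igfbp7 promoter held 26 and was 74.0% G or C. The Igf1 promoter held 5 and was 52.8% G or C, close to the median of 6 CpG and 52.4% over the 32851 mouse starts of the same table. All 9 genes were found in it, with 13 starts in all. Of 5 motifs searched on both strands, the GC box GGGCGG, which itself holds a CpG, stood 4 times in the Igfbp7 window, 3 times on its own strand and 1 time on the other. It stood in 5 of the 13 starts and in 32.7% of all starts. The TATA box hexamer TATAAA lay in 2 of the 13, on the gene's own strand for Igfbp4 and on the other strand for Igfbp6. It lay in 12.4% of all starts. The hexamer AGAACA of the glucocorticoid receptor lay in 2 of the 13 (Igf2 and Igfbp2) and in 16.1% of all. Matches were counted on either strand and at any place in the window. The FOXO core GTAAACA, in 3.17% of all starts, and the STAT palindrome TTCNNNGAA, in 7.02%, were in none of the 13. The windows shown for Igfbp3 and Igf1 held none of the 5 motifs.

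Levels below are the deposited intensities, on a linear scale, in the order replicate 1, replicate 2. Differences are on the scale of log2(intensity + 16) after quantile normalization, from limma fitted to all probe sets, with the standard error after ±, and they understate changes of dim probe sets. A probe set passed with a Benjamini-Hochberg adjusted p under 0.05 over the 24751 probe sets that lay at or above the array median on 2 or more of the 8 arrays. All 9 genes and 25 of the 26 probe sets were among these. The exception was the Igf1r probe set 1452108_at, which lay between the 32.4th and the 44.6th percentile of its array. Since 2 arrays per group limit the precision, and p-values measure only the spread between these arrays, the values of each array are given first. Over the tested probe sets the correlation was 0.976 to 0.984 within groups and 0.924 to 0.985 between groups. The genes stated to be null were checked first. Mt1 (1422557_s_at) read 12549 and 12850 on MT-/- DOX arrays, 4667 and 5322 on MT-/- saline arrays, 6735 and 9285 on MT+/+ DOX arrays, and 3722 and 4034 on MT+/+ saline arrays. Mt2 (1428942_at) read 2218 and 2213 on MT-/- DOX arrays, 968 and 1018 on MT-/- saline arrays, 1210.5 and 2732 on MT+/+ DOX arrays, and 452 and 485 on MT+/+ saline arrays. A second, dim Mt1 probe set (1451612_at) read 63.4 and 87.4 on MT-/- DOX arrays, 66.6 and 70.1 on MT-/- saline arrays, 82.9 and 103.1 on MT+/+ DOX arrays, and 68.2 and 70.4 on MT+/+ saline arrays. Signal of the 2 bright probe sets was thus not lost on the arrays labelled MT-/-, and wherever a direction by genotype is given here it is by these labels. Whether the probes lie outside an altered stretch is not given.

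Averaged over genotypes, DOX went with more Igfbp3 signal and, by part of their probe sets, with more Igf1r and less Igf1 and Igfbp7 signal. Of the 25 tested probe sets 8 passed for DOX minus saline averaged over genotypes, 4 higher (2 of Igfbp3, 2 of Igf1r) and 4 lower (3 of Igf1, 1 of Igfbp7). That is 32% of the 25, beside 13.9% of all 24751 tested probe sets, of which 7.03% rose and 6.84% fell. Probe sets of 1 gene are no independent counts. With each gene taken by its brightest tested probe set, 4 of 9 genes passed, beside 14.8% of 13008 genes. The 4 DOX arrays and the 4 saline arrays did not overlap after normalization for 8 of the 25, beside 18.4% of all probe sets. The median difference was -0.03 over the 25 and 0.00 over all probe sets.

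Igfbp3 encodes the main IGF carrier of the blood, and it had the largest difference of the 9 genes. Its probe set 1458268_s_at read 851 and 1337 on MT-/- DOX arrays, against 193 and 205 on MT-/- saline arrays, and 565 and 512 on MT+/+ DOX arrays, against 173 and 137 on MT+/+ saline arrays. All 4 DOX values were far above all 4 saline values, with the MT-/- DOX arrays the highest. The second probe set, 1423062_at, read 782 and 1187 on MT-/- DOX arrays, against 166 and 178 on MT-/- saline arrays, and 526 and 409 on MT+/+ DOX arrays, against 182 and 124 on MT+/+ saline arrays. Both probe sets gave the same order of the arrays by treatment, and over the 8 arrays they correlated at r = 0.995. The difference averaged over genotypes was 2.01 ± 0.14 (4.02-fold, limma adjusted p 1.43e-04) for 1458268_s_at and 1.95 ± 0.16 (3.87-fold, adjusted p 2.58e-04) for 1423062_at. Whichever array was left out, both still passed (highest adjusted p 0.00184).

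**Figure D1:**
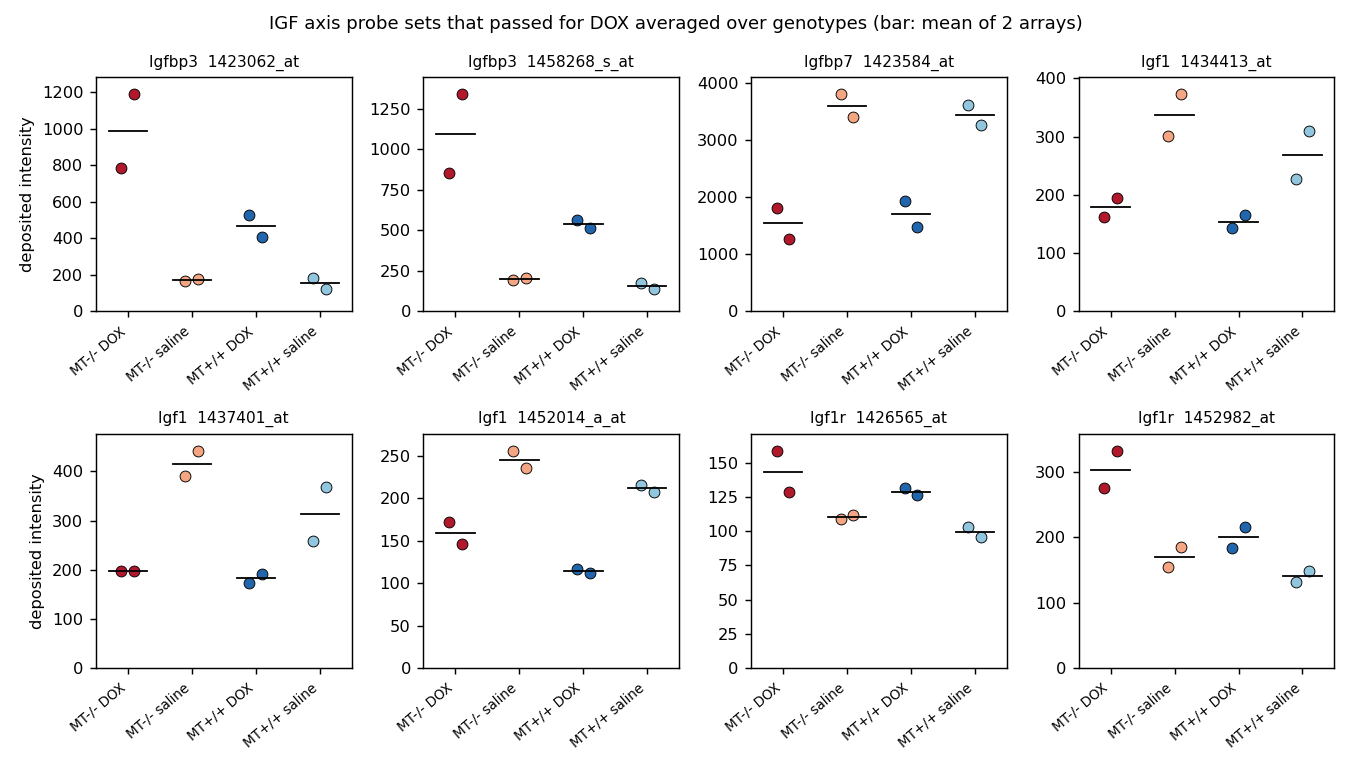
Deposited intensity (linear axis from 0) of the 8 probe sets that passed for DOX averaged over genotypes; each point is 1 array and each bar the mean of 2 arrays, with DOX left of saline and MT-/- left of MT+/+. Both Igfbp3 probe sets and Igf1r 1426565_at lie higher on all 4 DOX arrays than on any saline array, the 3 Igf1 and the Igfbp7 probe sets lie lower, and for Igf1r 1452982_at 1 MT+/+ DOX array (183) and 1 MT-/- saline array (185) meet.

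Igfbp7 encodes a secreted protein of the vessel wall and matrix that binds IGF only weakly, and its main probe set had the largest fall. Probe set 1423584_at read 1811 and 1277 on MT-/- DOX arrays, against 3801 and 3406 on MT-/- saline arrays, and 1929.6 and 1484 on MT+/+ DOX arrays, against 3609 and 3270.2 on MT+/+ saline arrays. All 4 DOX values were far below all 4 saline values, and the 2 genotypes were close to each other within a treatment. The difference averaged over genotypes was -1.15 ± 0.15 (2.21-fold lower, limma adjusted p 0.00213), and it still passed whichever array was left out (highest adjusted p 0.0110). The other 2 Igfbp7 probe sets did not pass. Probe set 1423585_at, a dim one, read 48.9 and 70.0 on MT-/- DOX arrays, against 88.7 and 94.9 on MT-/- saline arrays, and 63.7 and 67.2 on MT+/+ DOX arrays, against 72.0 and 89.0 on MT+/+ saline arrays. Its deposited DOX values were all under its saline values but overlapped them after normalization, and the difference was -0.36 ± 0.12 (adjusted p 0.0808). Probe set 1437804_at read 105 to 143 on DOX arrays and 132 to 151 on saline arrays and differed by -0.11 ± 0.09 (adjusted p 0.471). The 3 probe sets followed each other only in part, with r between 0.06 and 0.68 over the 8 arrays.

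Igf1, the ligand made by the liver and locally by heart tissue, was lower on DOX arrays by 3 of its 4 probe sets. Probe set 1437401_at read 197 and 197 on MT-/- DOX arrays, against 389.7 and 440.4 on MT-/- saline arrays, and 174 and 192 on MT+/+ DOX arrays, against 258 and 368 on MT+/+ saline arrays. All 4 DOX values lay below all 4 saline values. Probe set 1434413_at read 162 and 195 on MT-/- DOX arrays, against 301 and 372 on MT-/- saline arrays, and 143 and 165 on MT+/+ DOX arrays, against 227 and 309 on MT+/+ saline arrays, and 1452014_a_at read 172 and 146 on MT-/- DOX arrays, against 255 and 235 on MT-/- saline arrays, and 116 and 112 on MT+/+ DOX arrays, against 216 and 207 on MT+/+ saline arrays. For these 2 as well the DOX and saline arrays did not overlap. The differences were -0.86 ± 0.12 (1.82-fold lower, limma adjusted p 0.00297), -0.80 ± 0.12 (1.74-fold, 0.00448) and -0.70 ± 0.09 (1.62-fold, 0.00211), in the order of naming. All 3 still passed whichever array was left out (highest adjusted p 0.0211). The remaining probe set 1419519_at read 106 and 113 on MT-/- DOX arrays, against 137 and 156 on MT-/- saline arrays, and 80.6 and 108 on MT+/+ DOX arrays, against 115 and 149 on MT+/+ saline arrays. There the deposited DOX values were all under the saline values but overlapped them after normalization, and the difference of -0.38 ± 0.12 did not pass (adjusted p 0.0691). Over the 8 arrays the 4 probe sets correlated at r = 0.77 to 0.98.

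Igf2, imprinted and mainly a growth factor of the fetus, gave no difference that passed. Probe set 1448152_at read 594 and 452 on MT-/- DOX arrays, against 524 and 562 on MT-/- saline arrays, and 658 and 426 on MT+/+ DOX arrays, against 561 and 496 on MT+/+ saline arrays, a difference of -0.04 ± 0.16 with a 95% interval of -0.42 to 0.33 (limma adjusted p 0.908). Probe set 1415931_at read 90.3 and 103 on MT-/- DOX arrays, against 90.2 and 97.2 on MT-/- saline arrays, and 112 and 122 on MT+/+ DOX arrays, against 127 and 106 on MT+/+ saline arrays, a difference of 0.04 ± 0.09 with an interval of -0.15 to 0.24 (adjusted p 0.807). The treatments overlapped for both, and the 2 probe sets did not follow each other over the arrays (r = -0.09).

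Igf1r, the receptor for both ligands, was higher on DOX arrays by 2 of its 4 tested probe sets. Probe set 1452982_at read 275 and 331 on MT-/- DOX arrays, against 155 and 185 on MT-/- saline arrays, and 183 and 216 on MT+/+ DOX arrays, against 132 and 149 on MT+/+ saline arrays. Within each genotype both DOX values were above both saline values. Across genotypes the lower MT+/+ DOX value lay just under the higher MT-/- saline value as deposited and above it after normalization. The difference was 0.62 ± 0.10 (1.54-fold, limma adjusted p 0.0054), and it still passed whichever array was left out (highest adjusted p 0.0291). Probe set 1426565_at read 158 and 129 on MT-/- DOX arrays, against 109 and 112 on MT-/- saline arrays, and 131 and 126 on MT+/+ DOX arrays, against 103 and 96.0 on MT+/+ saline arrays, again with no overlap of treatments, and differed by 0.35 ± 0.09 (1.27-fold, adjusted p 0.0294). That call depended on the arrays: it was lost on leaving out any of 7 arrays, all except MT-/- DOX 2 (adjusted p up to 0.102). Probe set 1428967_at read 90.4 and 160.1 on MT-/- DOX arrays, against 54.0 and 71.8 on MT-/- saline arrays, and 73.5 and 100.4 on MT+/+ DOX arrays, against 54.8 and 76.9 on MT+/+ saline arrays. Here the treatments overlapped, and the difference of 0.58 ± 0.18 did not pass (adjusted p 0.0675). Probe set 1446303_at read 79.0 to 103 on DOX arrays and 81.3 to 89.3 on saline arrays (0.08 ± 0.11, adjusted p 0.711), and the dim 1452108_at was not tested. The probe sets of this gene thus did not all move together (r between -0.28 and 0.90 over 8 arrays).

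**Figure D2:**
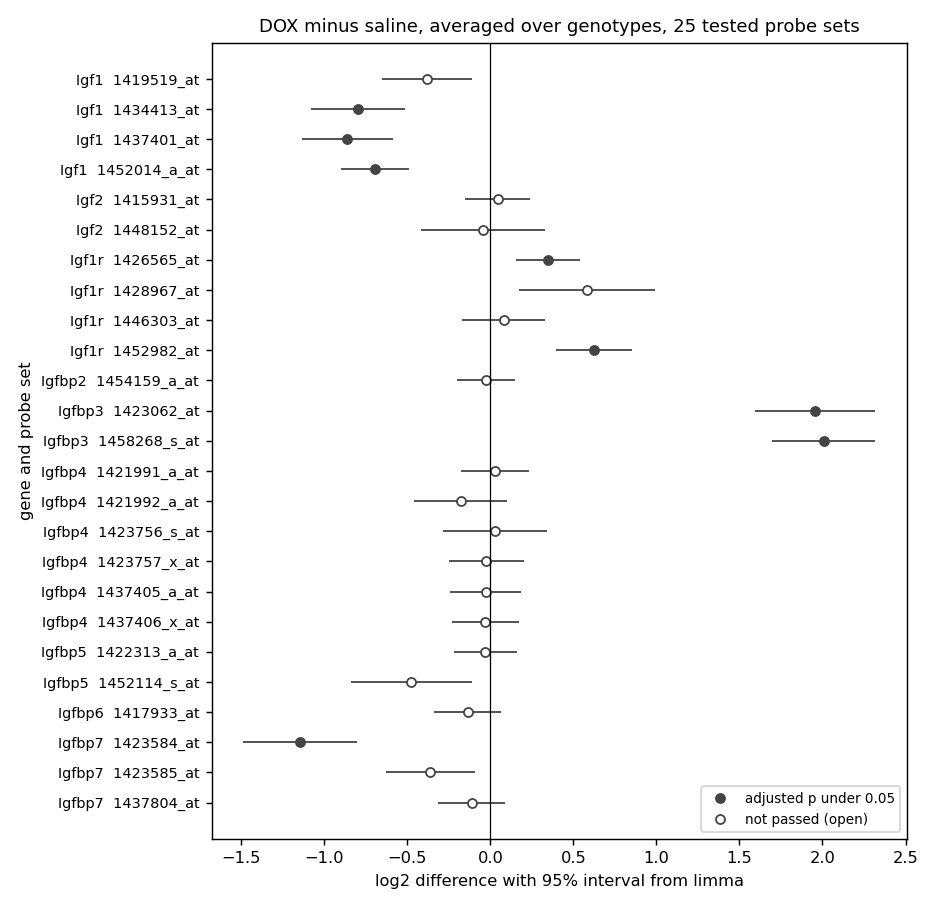
Log2 difference, DOX minus saline averaged over genotypes, of the 25 tested probe sets with the 95% interval from limma (horizontal axis); filled points passed at an adjusted p under 0.05 and open points did not. Igfbp3 stands at 1.95 and 2.01 and Igfbp7 1423584_at at -1.15, while the intervals of all Igfbp2, Igfbp4, Igfbp6 and Igf2 probe sets span 0.

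The other binding proteins did not pass for DOX. Igfbp2, a binder of both ligands, read 132 and 139 on MT-/- DOX arrays, against 138 and 137 on MT-/- saline arrays, and 136 and 127 on MT+/+ DOX arrays, against 146 and 129 on MT+/+ saline arrays (1454159_a_at). Its difference of -0.03 ± 0.08 had an interval of -0.20 to 0.15 (limma adjusted p 0.872), and the treatments overlapped. Igfbp4, which holds IGF back until the protease PAPP-A cuts it, was measured by 6 probe sets. Their differences ran from -0.18 to 0.03 (adjusted p 0.414 to 0.939), and the treatments overlapped for all 6. Igfbp5, a binder that attaches to the matrix, read 511 and 369 on MT-/- DOX arrays, against 533 and 824 on MT-/- saline arrays, and 422 and 381 on MT+/+ DOX arrays, against 552 and 471 on MT+/+ saline arrays (1452114_s_at). Under each label both DOX values were below both saline values, while across labels the treatments overlapped. The difference was -0.48 ± 0.16 (adjusted p 0.0872), while its second probe set 1422313_a_at, at 179 to 213 on DOX arrays and 182 to 210 on saline arrays, differed by -0.03 ± 0.08 (adjusted p 0.871). Igfbp6, a binder that prefers IGF2, read 241 and 246 on MT-/- DOX arrays, against 271 and 309 on MT-/- saline arrays, and 182 and 189.5 on MT+/+ DOX arrays, against 209.5 and 175 on MT+/+ saline arrays (1417933_at). It differed by -0.14 ± 0.09 for DOX (adjusted p 0.373).

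The comparison within each genotype asks whether the changes were seen on the arrays of each label. On arrays labelled MT-/- 7 of the 25 probe sets passed for DOX minus saline, 3 higher and 4 lower, which is 28% of them beside 6.21% of all tested probe sets (2.83% higher, 3.38% lower). On MT+/+ arrays 4 passed, 2 higher and 2 lower, which is 16% beside 2.48% (1.22% higher, 1.26% lower). Counted by gene, each by its brightest tested probe set, 4 of 9 passed in MT-/-, beside 6.74% of 13008 genes. In MT+/+ 2 of 9 passed, beside 2.68%. Igfbp3 rose under both labels. By 1458268_s_at the rise was 2.32 ± 0.19 (5.0-fold, limma adjusted p 8.97e-04) in MT-/- and 1.70 ± 0.19 (3.24-fold, 0.00664) in MT+/+. By 1423062_at it was 2.38 ± 0.22 (5.20-fold, 0.0012) in MT-/- and 1.53 ± 0.22 (2.88-fold, 0.0138) in MT+/+. Igfbp7 1423584_at fell under both labels, by 1.26 on the log2 scale in MT-/- (2.40-fold, adjusted p 0.0116) and by 1.03 in MT+/+ (2.04-fold, 0.0464).

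Igf1 passed by 3 probe sets in MT-/-, with -0.97 ± 0.17 for 1437401_at (limma adjusted p 0.0144), -0.83 ± 0.17 for 1434413_at (0.0298) and -0.55 ± 0.13 for 1452014_a_at (0.0412). In MT+/+ 1 of the 4, 1452014_a_at, passed (-0.84 ± 0.13, adjusted p 0.0161). The other 2 that passed in MT-/-, 1437401_at and 1434413_at, differed in MT+/+ by -0.75 ± 0.17 (0.0628) and -0.77 ± 0.17 (0.0618). In MT-/- they differed by -0.97 and -0.83, as given above. Both passed in MT+/+ with the filter at percentile 75 (0.0412 and 0.0439, in the same order). The remaining 1419519_at passed under neither label, with -0.34 ± 0.17 in MT-/- (0.304) and -0.42 ± 0.17 in MT+/+ (0.253). Igf1r 1452982_at passed in MT-/- with 0.78 ± 0.14 (adjusted p 0.0166), and read 0.47 ± 0.14 in MT+/+ (0.137).

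**Figure D3:**
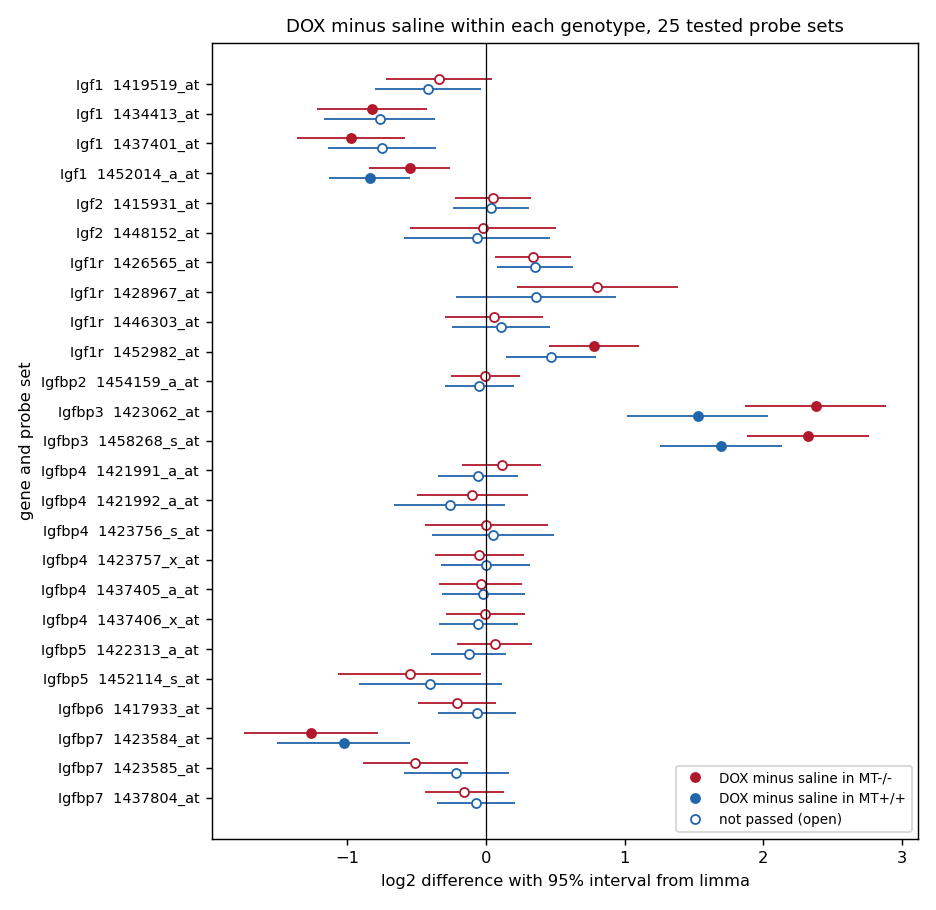
Log2 difference of DOX minus saline in MT-/- and in MT+/+ for the 25 tested probe sets, with the 95% interval from limma (horizontal axis); MT-/- is drawn above MT+/+ in each row, and filled points passed at an adjusted p under 0.05. Igfbp3 lies at 2.38 and 2.32 in MT-/- and at 1.53 and 1.70 in MT+/+, and Igfbp7 1423584_at at -1.26 and -1.03.

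These calls rest on 2 arrays against 2, and single arrays decided many of them. In MT-/- the count of 7 fell to 2 without MT-/- saline 1 or MT-/- DOX 2 and to 3 without MT-/- saline 2, but Igfbp3 passed there whichever array was left out. In MT+/+ the count of 4 fell to 0 without MT+/+ saline 2 or MT+/+ DOX 2 and to 1 without MT+/+ DOX 1. The MT+/+ calls of Igfbp3 were lost without MT+/+ saline 2 or MT+/+ DOX 2 and, for 1423062_at, MT+/+ DOX 1 (adjusted p up to 0.0915). That of Igf1 1452014_a_at was lost without any single MT+/+ array (up to 0.113). Igfbp7 lost its MT+/+ call without any single MT+/+ array or either MT-/- saline array (up to 0.243), and with eBayes run without a trend (0.0539). It lost the MT-/- call without MT-/- saline 1 or MT-/- DOX 2 (up to 0.0968). The Igf1 calls in MT-/- were lost for 1434413_at without any single MT-/- array (up to 0.176), for 1437401_at without any single MT-/- array except DOX 1 (up to 0.0978), and for 1452014_a_at without any single array except MT-/- DOX 1 (up to 0.271), with no filter (0.0690) or with only these groups in the fit (0.0983). The Igf1r call was lost without any single MT-/- array except DOX 1 (up to 0.138).

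Whether DOX acted differently by label was tested with the interaction, the DOX difference in MT-/- minus that in MT+/+. None of the 25 probe sets passed with limma, and 0% of all 24751 did. At an unadjusted p under 0.05 there were 2 of the 25, both Igfbp3, beside 573 of all. The Igfbp3 interaction was 0.85 ± 0.32 for 1423062_at (unadjusted p 0.0257, adjusted p 1) and 0.63 ± 0.27 for 1458268_s_at (unadjusted p 0.0484, adjusted p 1). The 95% intervals were 0.13 to 1.57 and 0.01 to 1.25, before any adjustment for the number of probe sets. For Igfbp7 1423584_at the interaction was -0.24 ± 0.30 (-0.92 to 0.45), for Igf1 1437401_at -0.23 ± 0.24 (-0.78 to 0.33) and for Igf1r 1452982_at 0.31 ± 0.20 (-0.15 to 0.77), each with an adjusted p of 1.

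The genotype comparison asks how arrays labelled MT-/- differed from MT+/+ arrays. Averaged over treatments, none of the 25 probe sets passed with limma, beside 0.905% of all, and 11 of the 25 had an unadjusted p under 0.05, beside 3210 of all. The difference was positive, that is higher on arrays labelled MT-/-, for 21 of the 25, with a median of 0.21 beside 0.00 over all probe sets. Here too, probe sets of 1 gene are no independent counts. The 4 arrays of each label did not overlap for 7 of the 25 (6 higher and 1 lower in MT-/-), beside 5.74% of all probe sets (2.54% higher, 3.20% lower). Of the 7, 5 measure Igfbp4. Under DOX none passed, beside 0.283% of all, with 10 at an unadjusted p under 0.05, beside 1829 of all. Under saline none passed, beside 0.186% of all, with 5 at an unadjusted p under 0.05, beside 2133 of all. The fit with the replicate number as a block, an alternative only, gave 9 averaged over treatments (all higher), beside 1202 of all. It gave 2 under DOX, beside 383, and 0 under saline, beside 209.

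For Igfbp6 and 5 of the 6 Igfbp4 probe sets, the 4 arrays labelled MT-/- lay apart from the 4 MT+/+ arrays. Igfbp6 had the smallest p of the 9 genes, and its 4 values on arrays labelled MT-/-, given above, ran from 241 to 309, against 175 to 210 on MT+/+ arrays. It differed by 0.43 ± 0.09 (1.35-fold, limma adjusted p 0.075), which passed where arrays were centred on their medians in place of quantile normalization (adjusted p 0.0454). Igfbp4 1437405_a_at read 1892 and 1996 on MT-/- DOX arrays, against 1445 and 1441 on MT+/+ DOX arrays, and 1839.6 and 2031 on MT-/- saline arrays, against 1201 and 1576 on MT+/+ saline arrays. The lowest MT-/- value was above the highest MT+/+ value. The same held for Igfbp4 1421991_a_at, 1423756_s_at, 1423757_x_at and 1437406_x_at. The 5 differences were 0.36 ± 0.09, 0.34 ± 0.09, 0.56 ± 0.14, 0.35 ± 0.10 and 0.35 ± 0.09, with adjusted p of 0.134 to 0.188. Without MT+/+ saline 2, 1423756_s_at passed (adjusted p 0.0412).

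The sixth Igfbp4 probe set went its own way. Probe set 1421992_a_at read 1173 and 1093 on MT-/- DOX arrays, against 1168 and 934 on MT+/+ DOX arrays, and 1319 and 1115 on MT-/- saline arrays, against 1214 and 1111 on MT+/+ saline arrays. The labels overlapped, with a difference of 0.00 ± 0.12 (limma adjusted p 0.993). Over the 8 arrays it correlated with the other 5 at r = -0.14 to 0.32, while those 5 correlated among themselves at 0.79 to 0.98. By Affymetrix naming, probe sets ending in s_at or x_at hold probes that can also match other transcripts, which concerns 3 of these 6, Igfbp3 1458268_s_at and Igfbp5 1452114_s_at.

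**Figure D4:**
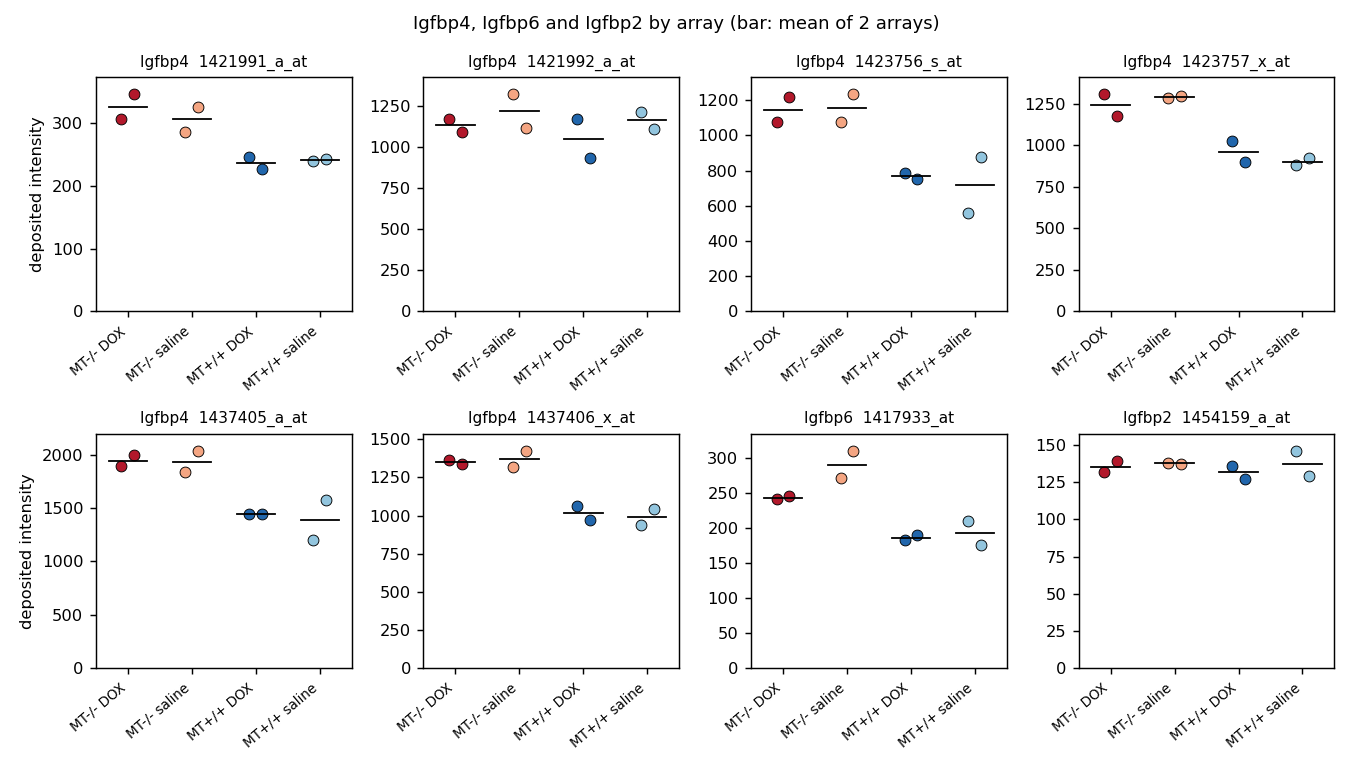
Deposited intensity (linear axis from 0) of the 6 Igfbp4 probe sets, Igfbp6 and Igfbp2; each point is 1 array and each bar the mean of 2 arrays, with DOX left of saline within each genotype label. Igfbp6 and 5 of 6 Igfbp4 probe sets lie higher on all 4 arrays labelled MT-/- than on any MT+/+ array, while Igfbp4 1421992_a_at and Igfbp2 overlap.

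Igf2 1415931_at had lower values on all 4 arrays labelled MT-/- than on any MT+/+ array, as given above, with a difference of -0.22 ± 0.09 (limma adjusted p 0.327). The brighter Igf2 probe set 1448152_at did not share this. Its labels overlapped, with a difference of -0.07 ± 0.16 (adjusted p 0.902). The Igfbp3 difference between the labels did not pass under either treatment. Under DOX it was 1.01 ± 0.22 (2.01-fold, adjusted p 0.179) for 1423062_at and 0.94 ± 0.19 (1.92-fold, 0.14) for 1458268_s_at. Under saline it was 0.16 ± 0.22 (0.877) and 0.31 ± 0.19 (0.681). Averaged over treatments 1458268_s_at differed by 0.63 ± 0.14 (adjusted p 0.0939), which passed without MT-/- DOX 1 (0.0325). Averaged over treatments, Igf1 differed by 0.19 to 0.29 and Igfbp7 1423584_at by -0.09, none of which passed. Igf1r 1452982_at differed there by 0.40 ± 0.10 (limma adjusted p 0.147) and the other tested Igf1r probe sets by 0.06 to 0.22. Under DOX, Igf1r 1452982_at differed by 0.55 ± 0.14 (0.288) and Igf1 1452014_a_at by 0.44 ± 0.13 (0.369). The other tested probe sets of these genes differed under DOX by 0.03 to 0.45. None of these passed either.

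Markers of other heart cells moved with the DOX groups. Of 10 fibroblast markers 7 fell and 0 rose for DOX averaged over genotypes, with a median of -1.34, and of 10 macrophage markers 10 fell, with a median of -0.71, beside 7.81% of 13008 genes that fell and 6.98% that rose, and a median of -0.01. Summed fibroblast marker intensity was 11211 to 11933 on MT-/- DOX arrays, against 18067 to 21107 on MT-/- saline arrays, and 10409 to 11659 on MT+/+ DOX arrays, against 16584 to 16668 on MT+/+ saline arrays. Summed macrophage marker intensity was 6612 to 7151 on MT-/- DOX arrays, against 9698 to 11655 on MT-/- saline arrays, and 5241 to 6057 on MT+/+ DOX arrays, against 10294 to 11925 on MT+/+ saline arrays. Both sums were lower on DOX arrays than on saline arrays under both labels, the direction of Igf1 and Igfbp7 and not that of Igfbp3 and Igf1r. Macrophage calls numbered 6 without MT+/+ DOX 1 or MT-/- saline 2.

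Of the remaining lists, 5 of 10 endothelial markers fell (median -0.27), 2 of 8 smooth muscle and pericyte markers (-0.17), 4 of 8 cardiomyocyte markers (-0.09) and 0 of 4 epicardial ones (-0.06, 1 at an unadjusted p under 0.05 with limma). None of these lists had a gene that rose. Endothelial and cardiomyocyte calls numbered 1 to 3 without any single saline array or without MT+/+ DOX 2, and smooth muscle calls 1 without any single array except MT-/- DOX 1. Cardiomyocyte calls numbered 2 with median centring and 1 with eBayes run without a trend, and smooth muscle calls 1 with the deposited scaling, with median centring and with no filter. Summed endothelial intensity was 13258 to 13279 on MT-/- DOX arrays, against 17182 to 17224 on MT-/- saline arrays, and 12115 to 13762 on MT+/+ DOX arrays, against 15061 to 15117 on MT+/+ saline arrays. Smooth muscle sums were 9878 to 12308 on MT-/- DOX arrays, against 13076 to 17029 on MT-/- saline arrays. On MT+/+ arrays they were 10847 to 12174 with DOX, against 13675 to 13684 with saline. The defining heart muscle markers were bright on every array. Their sums were 96037 to 100804 on MT-/- DOX arrays, against 105453 to 107236 on MT-/- saline arrays. On MT+/+ arrays they were 100867 to 101133 with DOX, against 103931 to 106438 with saline. Like the endothelial sums, both were lower with DOX under both labels, while epicardial sums overlapped in MT+/+. No marker was listed at 0, but Wt1, Msln and Lrrn4 of the epicardial list and Cnn1 of the smooth muscle list did not reach the filter. In bulk heart RNA, fewer cells of a type and less RNA per cell cannot be told apart, and the part of these shifts in the IGF results was not tested. The 3′ over 5′ signal of the actin control probe sets, a measure of RNA quality, was 0.913 to 1.18 on DOX arrays and 1.14 to 1.24 on saline arrays, and its part was not tested either. For genotype averaged over treatments, 0 markers passed in all 6 lists with limma, beside 52 of 13008 genes that were higher and 63 that were lower in MT-/-. At an unadjusted p under 0.05 there were 3 markers, beside 1722 of all genes.

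Around the 9 genes, 5 lists of partner genes were counted for DOX averaged over genotypes, each gene by its brightest tested probe set. In the list of carriers, proteases and clearance receptors 1 of 11 fell and 0 rose (median -0.03), beside the 7.81% of all genes that fell and the 6.98% that rose. Htra1, a serine protease that cuts IGF binding proteins, fell by 0.68 ± 0.09 on the log2 scale (limma adjusted p 0.00218). Htra3, a related protease, read -0.64 ± 0.19 (0.0541), with other probe sets of the gene at 0.98 and -0.01. Ide, which degrades insulin, read 0.35 ± 0.11 (0.0745), and Pappa, the protease that cuts IGFBP4, read -0.23 ± 0.13 (0.291). Without MT-/- DOX 1 the count was 3. Igfbp1, a liver binding protein next to Igfbp3 on the chromosome, did not reach the filter, at 22.2 to 40.7 on the 8 arrays.

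Among receptors and adaptors 2 of 14 rose and 1 fell (median -0.10), beside the same 6.98% and 7.81%. Insr, the insulin receptor, which pairs with Igf1r into hybrid receptors, read 567 and 976 on MT-/- DOX arrays, against 266 and 300.1 on MT-/- saline arrays, and 469.6 and 539 on MT+/+ DOX arrays, against 276 and 260.0 on MT+/+ saline arrays. All DOX values were above all saline values. The rise was 1.10 ± 0.15 (limma adjusted p 0.00247), but another Insr probe set read -0.12. Grb14, an adaptor that restrains the insulin receptor kinase, fell by 0.71 ± 0.08 on the log2 scale (0.00131), and the phosphatase gene Ptpn11 rose by 0.38 ± 0.07 (0.0102, or 0.0501 without MT-/- saline 2). Irs2, a docking protein of both receptors, read 0.63 ± 0.18 (0.0513).

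In the list of PI3K, AKT, FOXO and mTOR signalling 4 of 22 rose and 0 fell (median 0.20), again beside 6.98% and 7.81%. Eif4ebp1, a brake on translation that mTOR releases, read 3061 and 4092 on MT-/- DOX arrays, against 1117 and 1266 on MT-/- saline arrays, and 2305 and 2474 on MT+/+ DOX arrays, against 1186 and 1107 on MT+/+ saline arrays. The treatments did not overlap, and the rise was 1.27 ± 0.10 (limma adjusted p 2.70e-04). Foxo3, a transcription factor that AKT inactivates, rose by 0.93 ± 0.23 (0.0304), with its other probe sets at 1.03 and 0.15. Pik3r1, the regulatory subunit of PI3K, rose by 0.51 ± 0.11 (0.0194), and Pdpk1, the kinase that activates AKT, by 0.49 ± 0.11 (0.0173). Eif4ebp1 passed whichever array was left out, but the count fell to 1 without replicate 1 of either saline group or MT+/+ DOX 2 and to 2 without MT-/- saline 2 or MT-/- DOX 2.

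Of the growth hormone axis, which drives Igf1 transcription in liver, 0 of 6 passed with limma (median -0.24). At an unadjusted p under 0.05 there were 3 of the 6, beside 3750 of all 13008 genes. Stat5a, a transcription factor of growth hormone signalling, read -0.32 ± 0.09 (adjusted p 0.0539), its feedback inhibitor Socs2 -0.39 ± 0.13 (0.0857), the receptor Ghr -0.40 ± 0.13 (0.0912) and Stat5b -0.15 ± 0.11 (0.429). Without MT+/+ saline 1 or MT-/- DOX 2, 1 passed. Of the imprinted neighbours of Igf2 and the binders of its mRNA, 0 of 5 passed (1 at an unadjusted p under 0.05, median -0.09). Igf2bp3, an mRNA binder, read -0.40 ± 0.16 (0.15). Ins2, next to Igf2 on the chromosome, read -0.09 ± 0.11 (0.67), the growth inhibitor Cdkn1c -0.09 ± 0.14 (0.748) and Igf2bp1 0.04 ± 0.11 (0.87). The probe sets of Pappa2, Insrr and Dlk1 did not reach the filter, and some further genes of these lists were not analysed here.

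**Figure D5:**
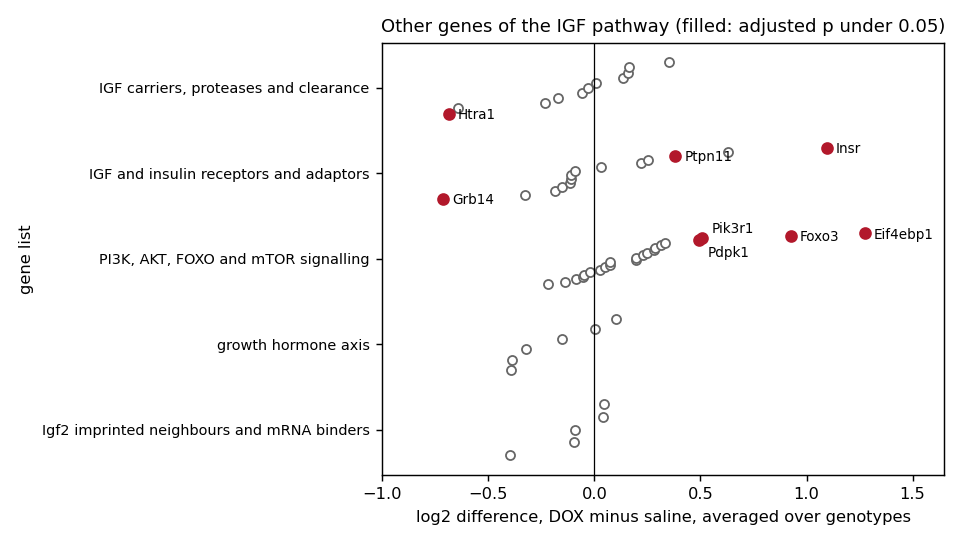
Log2 difference, DOX minus saline averaged over genotypes, of the tested genes of 5 partner lists, 1 point per gene by its brightest tested probe set, with labels at the genes that passed; filled points passed at an adjusted p under 0.05. Eif4ebp1 (1.27) and Insr (1.10) are the highest and Grb14 (-0.71) the lowest of those that passed.

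The probe sets whose values over the 8 arrays were most like those of Igfbp3 and Igfbp7 were listed as a description, since treatment alone orders many genes the same way. Among 21466 probe sets of 1 symbol, Igfbp3 1458268_s_at was followed most closely by Tmtc1 (r = 0.996), Tom1 (0.996) and 5430440P10Rik (0.995). These differed by 1.14, 0.89 and 0.58 for DOX averaged over genotypes. Igfbp7 1423584_at was followed most closely by the coenzyme Q synthesis gene Pdss2 (r = 0.995), the proteasome activator gene Psme1 (0.994) and Gimap4 (0.990), a GTPase gene of lymphocytes and endothelium. Their differences were -0.49, -0.78 and -1.05.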

How the data were processed

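The authors deposited 1 linear intensity per probe set and array, made with GCOS 1.4 per the submitters' processing notes. Neither the signal algorithm nor the scaling target is stated, and detection calls were not used here. Total RNA came from a Trizol extraction and was hybridized as biotinylated cRNA, per the labels' protocols. Of 45101 rows, 64 Affymetrix controls were left out. The platform annotation gave 1 symbol to 34958 rows, several to 932 and none to 9211, and genes were named from the first kind only. Arrays were quantile-normalized and tested as log2(intensity + 16) with limma 3.58.1 in R 4.3.3 (4 group means over 8 arrays, eBayes with a trend, residual degrees of freedom 4, prior 4.66). Probe sets at or above the array median on at least 2 of 8 arrays were kept. P-values are two-sided with Benjamini-Hochberg adjustment over these 24751 in each of 7 comparisons. The fit was tested on simulated data with 200 changed probe sets. The simulated noise was independent between arrays, so deviations shared by arrays of the same replicate number were not covered.

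Every probe set of the 9 genes is accounted for. Of each partner list up to 4 genes with the smallest p for DOX averaged over genotypes were named, and the 3 closest patterns of the called probe sets with the largest rise and the largest fall. Genes, lists and tests were chosen with earlier results of these data known. Promoter sequences are from RefSeq (GRCm38.p6). Alternatives were the deposited scaling, median centring, pseudocounts of 1 and 64, no filter, a filter at percentile 75, only the groups compared, the replicate number as a block, eBayes without a trend, and leaving out each array.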

Additional observations from a re-analysis of the deposited data

How the results depend on the processing

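No difference of a probe set or gene changed sign while called under any alternative. Numbers of called probe sets of the 9 genes moved as follows. With the replicate number as a block, 12 in place of 8 passed for DOX averaged over genotypes (6702 in place of 3433 of all probe sets), 9 in place of 7 for DOX in MT-/- (4188 in place of 1538), 8 in place of 4 for DOX in MT+/+ (2740 in place of 613), 9 in place of 0 for genotype averaged over treatments (1202 in place of 224), and 2 in place of 0 for genotype under DOX (383 in place of 70). The calls it added for DOX averaged over genotypes were Igf1 1419519_at (adjusted p 0.0073), Igf1r 1428967_at (0.00116), Igfbp5 1452114_s_at (0.0384) and Igfbp7 1423585_at (0.0153), and in MT-/- Igf1r 1428967_at (0.0024) and Igfbp7 1423585_at (0.0235). In MT+/+ it added Igf1 1419519_at, 1434413_at and 1437401_at and Igf1r 1452982_at (0.00382 to 0.0448). The 9 for genotype were 5 probe sets of Igfbp4 and 1 each of Igfbp6, Igfbp3, Igf1r and Igf1 (adjusted p 0.0141 to 0.0485), and the 2 under DOX were Igfbp3 1458268_s_at and Igf1r 1452982_at. The block fit is an alternative only, because the labels give just 2 replicate numbers and no reason for them. Arrays of the same number deviated together at r = 0.36 to 0.54 between groups over 24751 probe sets, and with 2 arrays per group these values have no independent check. With median centring, 1 in place of 0 passed for genotype averaged over treatments, and with the filter at percentile 75, 6 in place of 4 for DOX in MT+/+. Other counts fell. The filter at percentile 75 gave 7 in place of 8 for DOX averaged over genotypes. For DOX in MT-/-, 6 in place of 7 passed with no filter and also with only the groups compared. For DOX in MT+/+, 3 in place of 4 passed with eBayes run without a trend.

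On leaving out 1 array, the calls ranged from 7 to 9 for DOX averaged over genotypes, 0 to 4 for DOX in MT+/+, 2 to 7 for DOX in MT-/- and 0 to 1 for genotype averaged over treatments, and stayed at 0 for genotype under each treatment and for the interaction. Where an arm was left with 1 array, that array was assumed to vary like the other groups. In the partner lists the block gave 9 calls in place of 4 for PI3K, AKT, FOXO and mTOR signalling, 6 in place of 3 for receptors and adaptors, 3 in place of 1 for carriers and proteases, 3 in place of 0 for the growth hormone axis and 1 in place of 0 for the neighbours and mRNA binders of Igf2. The stricter filter gave 3 for carriers and proteases. The cause of these shifts was not tested. The number of arrays, 2 per group, limits the precision of every value.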
